A study of Solanum lycopersicum with 8 samples.

Results

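Chromatin loops with anchors 45 to 200 kb apart were examined in tomato inflorescences of the anantha-e1546 mutant in the M82 background. The list was deposited as 1 combined set from 2 Hi-C samples, taken from different plants 10 weeks after sowing. Members were chosen by the distance between the midpoints of their anchor bins, and 2128 of the 9573 listed loops qualified (22.2%). They were set against the 6497 loops of 10 to 40 kb and the 948 loops over 200 kb. The study's other assay, ATAC-seq of young leaves of M82, was not used here.

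Hi-C joins and sequences DNA ends that lie close together in cross-linked nuclei, and a loop call marks a pair of bins that touch more often than their distance predicts. ANANTHA encodes an F-box protein needed for floral identity, and its loss turns the inflorescence into a cauliflower-like mass of meristems. Plants lack CTCF, the protein that fixes many loop anchors in animals. Plant loops have been described between genes, between genes and distal regulatory sites, and around clusters of silent chromatin. Tomato chromosomes carry most genes in the distal arms, and the large central part is heterochromatin rich in repeats.

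The list gives bins of 5 kb and no contact count, score or q. The strength of a loop and the sequencing depth behind it are therefore unknown, and so is the spread between the 2 plants. Errors below are spreads over the 12 chromosomes or exact binomial 95% intervals, which cover counting error only and treat neighbouring loops as independent. No pair of 45 to 200 kb loops agreed to within 1 bin at both anchors, while 471 members (22.1%) had another within 2 bins. Adjacent calls are therefore absent within the class, and these counts do not cover shorter or longer loops. Whether adjacent calls were removed before deposit is not stated. The assembly of the list is not named; positions are given as listed, and they were not joined to genes, to sequence or to the leaf peaks.

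Loops became rarer with span throughout the lower part of the range and then levelled off. The 45 kb span held 235 loops, the 60 kb span 140, the 80 kb span 90 and the 100 kb span 50. From 155 to 200 kb each span held between 21 and 40 loops. The median was 80 kb, with quartiles of 55 and 120 kb. Spans of 45 to 60 kb made up 34.4% of the class and spans of 155 to 200 kb made up 13.9%. The limits of the class cut a continuous distribution: just outside them lay 290 loops of 40 kb and 19 of 205 kb, beside 235 of 45 kb and 21 of 200 kb just inside. The share at the chromosome ends was also close across each limit, at 83.1% for 40 kb and 84.3% for 45 kb, and at 66.7% for 200 kb and 68.4% for 205 kb.

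**Figure D1:**
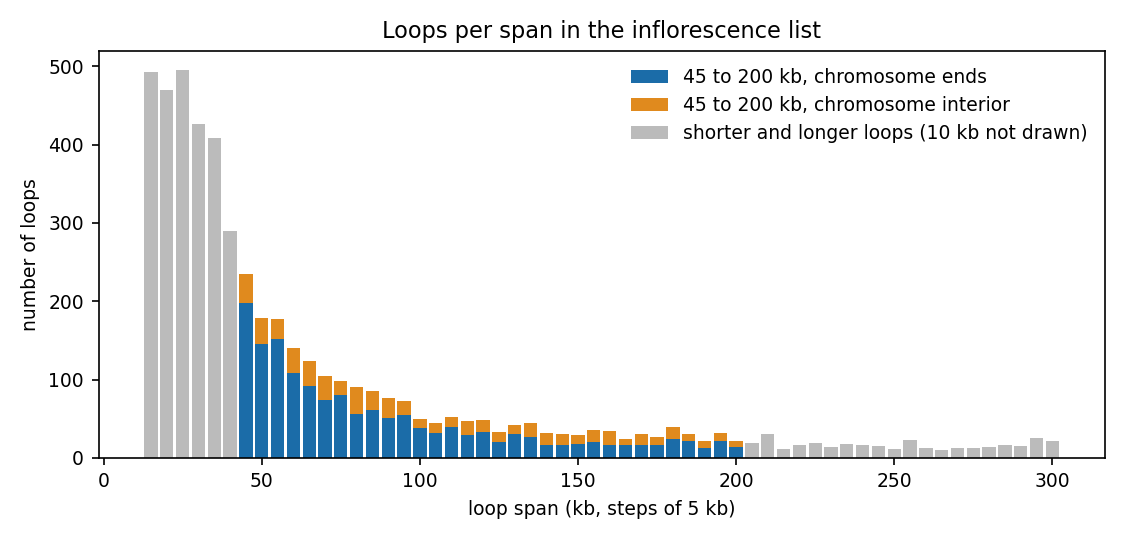
Number of loops (vertical axis) at each span in steps of 5 kb (horizontal axis), from 15 to 300 kb. Bars of the 45 to 200 kb class are split into loops of the chromosome ends and of the interior; counts drop from 235 at 45 kb to 21 at 200 kb, with no step at either limit of the class.

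Every chromosome carried loops of this class, at 177 ± 46.1 per chromosome (SD, n = 12 chromosomes). Chromosome 1 had 231, chromosome 2 had 224, chromosome 9 had 219, and chromosomes 3 and 7 had 212 each. Chromosomes 8, 5, 4 and 6 followed with 188, 176, 166 and 164. The fewest were on chromosome 11 with 136, chromosome 10 with 105 and chromosome 12 with 95. Per Mb of extent, which is the stretch up to the last listed anchor bin, the density averaged 2.69 ± 0.741 loops (SD, n = 12 chromosomes). It was highest on chromosome 2, at 4.07 per Mb, and lowest on chromosome 12, at 1.35 per Mb. The class took a larger part of all loops on chromosomes 9, 5 and 7 (29.6%, 27.4% and 27.2%) than on chromosome 1 (18.6%). Median span ran from 70 kb on chromosomes 1, 2 and 6 to 90 kb on chromosomes 11 and 12.

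Loops of 45 to 200 kb were concentrated at the chromosome ends, meaning the first and last 20% of each extent. The ends held 1551 of them, or 72.9% (95% interval 70.9 to 74.8%), with 608 in the first 20% and 943 in the last. Over the whole list the ends held a larger share, 80.3% (7684 of 9573 loops). Density of the class was 4.84 loops per Mb at the ends and 1.20 per Mb in the interior. As a geometric mean over chromosomes, density at the ends was 5.01 times that of the interior (95% interval 2.95 to 8.52). It was higher on 12 of 12 chromosomes (two-sided exact permutation of signs, p = 0.000488, the smallest possible, adjusted 0.000684 over 7 tests). With ends of 10% on each side the mean log2 ratio was 1.43 in place of 2.33, positive on 11 of 12 chromosomes (exact two-sided sign-flip permutation p = 0.000977). The contrast was very uneven. Chromosome 12 had 86 loops at its ends and 9 in the interior, and chromosome 7 had 190 and 22. On chromosome 2, whose short arm carries the ribosomal DNA, 90 lay at the ends and 134 in the interior, with densities of 4.09 and 4.06 per Mb. Chromosomes 3, 1 and 6 also held many in the interior, with 82, 76 and 76.

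This placement lay between those of the shorter and the longer loops. The ends held 88.0% of the 10 to 40 kb loops (95% interval 87.2 to 88.8%) and 43.9% of the loops over 200 kb (40.7 to 47.1%). Against the shorter loops the mean difference was −16.2 percentage points (95% interval −20.2 to −12.2), and it was negative on 12 of 12 chromosomes (exact two-sided sign-flip permutation p = 0.000488; adjusted 0.000684). Against the loops over 200 kb it was 30.4 percentage points (95% interval 19.5 to 41.3) and positive on 11 of 12, with chromosome 2 as the exception at −4.27 (exact sign-flip permutation p = 0.000977; adjusted 0.00114). The 12 chromosomes come from a single list, so such a p states how evenly a difference recurs along the genome and not how it would vary between plants. The gradient also ran inside the class: the ends held 82.5% of loops of 45 to 60 kb (95% interval 79.5 to 85.2%), 72.6% at 65 to 80 kb, 72.2% at 85 to 100 kb, 64.9% at 105 to 150 kb and 61.0% at 155 to 200 kb (55.2 to 66.6%).

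The ends themselves were not uniform. When each extent was cut into 10 equal parts, the class was most frequent in part 9, with 530 loops, ahead of the last part, with 413. Part 9 held more than part 10 on 8 of 12 chromosomes, and fewer on chromosomes 5, 9, 11 and 12. The shorter loops behaved otherwise, with 1359 in part 9 and 2762 in part 10. In part 10 there were 0.150 loops of 45 to 200 kb for each shorter loop, against 0.390 in part 9 and 0.288 in part 1. In part 2, on the inner side of the first end, the class numbered 181 and exceeded the 111 shorter loops, and it also outnumbered them in parts 3 to 6. The class was rarest in part 4, with 33 loops. Members of part 10 had a median span of 60 kb and those of part 1 a median of 70 kb, while the median reached 110 kb for part 2 and 155 kb for part 3. These are counts over all chromosomes, with no test.

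**Figure D2:**
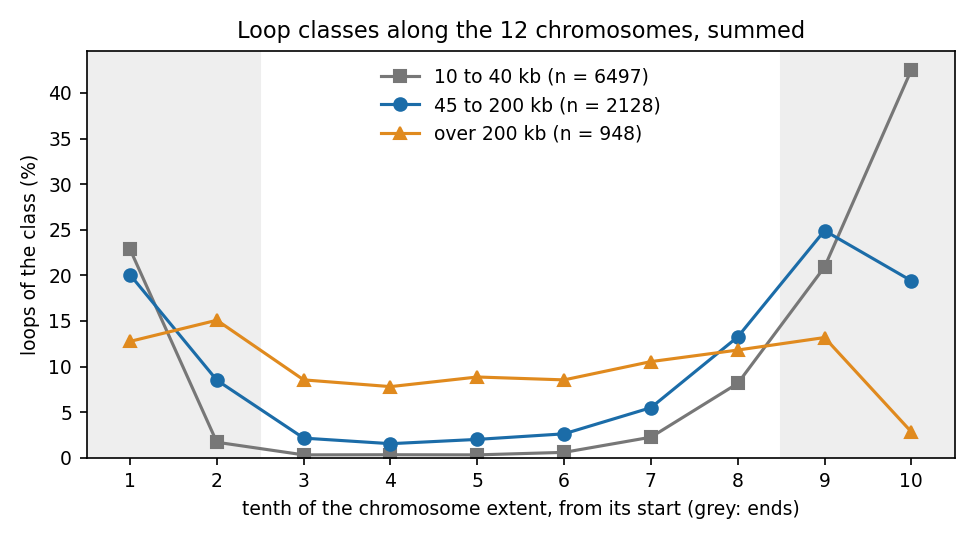
Share of each loop class (vertical axis, %) in each of 10 equal parts of the chromosome extents (horizontal axis), summed over 12 chromosomes, with the ends shaded. Loops of 45 to 200 kb reach 24.9% in part 9 and 19.4% in part 10, where 42.5% of the 10 to 40 kb loops and 2.85% of the loops over 200 kb lie.

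Along the chromosomes the class formed bands. Of 796 full windows of 1 Mb, 368 (46.2%) held no midpoint of such a loop, and the median window held 1. The other classes left more windows empty: 420 held no loop of 10 to 40 kb and 447 none over 200 kb. The 48 windows with at least 10 loops of 45 to 200 kb were 6.03% of the windows and held 660 loops, 31.0% of the class. The fullest window was at 56 to 57 Mb of chromosome 7, with 25 loops of 45 to 200 kb beside 12 shorter loops and 3 over 200 kb. The window at 48 to 49 Mb of chromosome 2 had 24, and the first Mb of chromosome 5 had 23; these had 40 and 35 shorter loops and none over 200 kb. The longest stretch with no anchor of the class ran from 20145001 to 43770000 on chromosome 1, 23.6 Mb, where 2 shorter and 11 longer loops lay. Next came 16655001 to 36820000 on chromosome 8 (20.2 Mb) and 33565001 to 52490000 on chromosome 5 (18.9 Mb). Whether such stretches are gaps, repeats where reads cannot be placed, or sequence without loops was not tested.

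**Figure D3:**
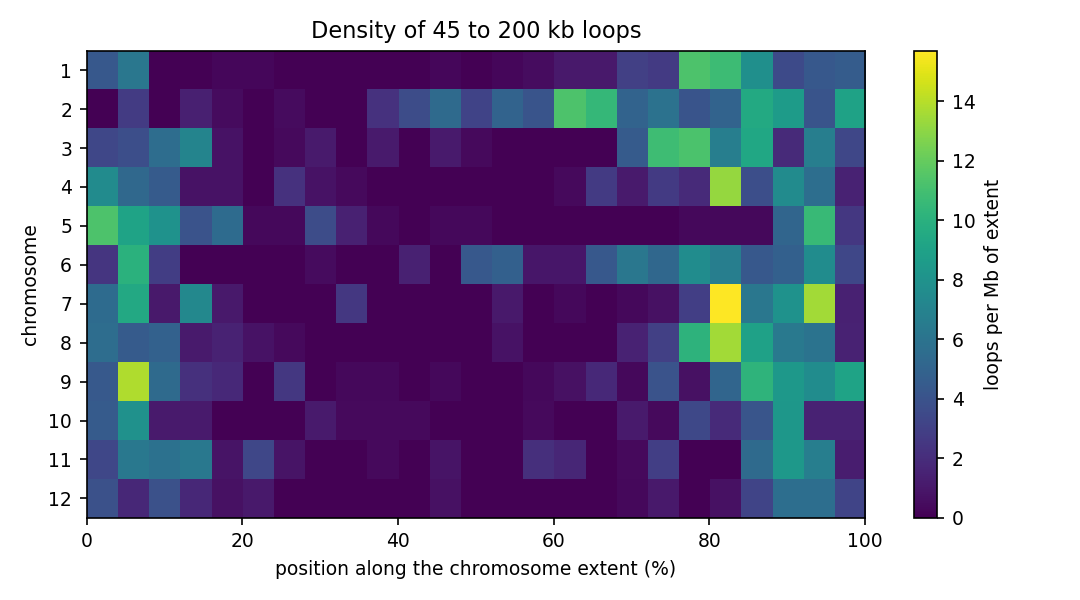
Density of 45 to 200 kb loops (colour, loops per Mb) in 25 equal parts of each chromosome extent (horizontal axis, %; rows are chromosomes). Dense parts sit near both ends on most chromosomes, while chromosomes 2 and 6 also carry loops through the middle.

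Most loops of the class shared an anchor bin with another listed loop. Of the 2128, 1341 did so (63.0%; 95% interval 60.9 to 65.1%), 419 of them at both anchors and 922 at a single anchor. A loop of 10 to 40 kb was the partner for 799 (37.5%), another loop of the class for 792 (37.2%) and a loop over 200 kb for 147 (6.91%). The side nearer the chromosome start was shared in 896 loops and the other side in 864. Sharing was more common at the ends, 67.4% (95% interval 65.0 to 69.8%), than in the interior, 51.1% (47.0 to 55.3%).

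Sharing was higher than among loops of 10 to 40 kb, of which 53.5% shared an anchor bin (95% interval 52.3 to 54.8%). The mean difference was 9.89 percentage points (95% interval 8.15 to 11.6), positive on 12 of 12 chromosomes (exact two-sided sign-flip permutation p = 0.000488; adjusted 0.000684). The difference came with the 10 kb loops. Of these 47.2% shared an anchor bin, against 63.2% of the loops of 15 to 40 kb, and against the latter alone the mean difference was 0.731 percentage points (exact sign-flip permutation p = 0.503, positive on 7 of 12). Loops of a single span can share a bin only end to end, which limits sharing among the 10 kb loops by construction. The part of this limit in the difference was not tested. Loops over 200 kb shared anchors less often, at 42.4% (95% interval 39.2 to 45.6%), with a mean difference of 20.1 percentage points (95% interval 14.9 to 25.4; 12 of 12 chromosomes; exact two-sided sign-flip permutation p = 0.000488; adjusted 0.000684).

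Local loop density moved with the sharing. A loop of the class had a median of 27 other loops within 500 kb, a shorter loop 39 and a loop over 200 kb 7. Distances were taken between midpoints. Anchors of longer loops lie farther from the midpoint, and density at the anchors themselves was not counted. Among loops with 5 to 14 others nearby, sharing was 43.8% in the class (95% interval 39.0 to 48.7%) and 45.8% in the loops over 200 kb (40.3 to 51.3%). With 15 to 29 others it was 60.9% and 66.0%, and with 30 to 44 others 73.5% and 83.3% (36 longer loops). With 0 to 4 others the class was the higher, at 30.6% (95% interval 23.5 to 38.4%) against 21.6% (17.5 to 26.2%), and 370 of the 948 longer loops lay at that density. The difference from the longer loops thus had no single direction over these densities, and the intervals of both classes overlapped at each. With 45 or more others, 85.8% of the class shared an anchor (95% interval 81.7 to 89.2%) against 61.9% of the shorter loops (59.7 to 64.0%), whereas with 0 to 4 others the shorter loops stood at 30.4%.

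The class used 3761 distinct anchor bins, 2.35% of all bins in the extents. Of these, 412 (11.0%) anchored at least 2 loops of the class, 67 at least 3 and 11 at least 4. Repeated bins mostly fanned to a single side: 173 were always the anchor nearer the chromosome start, 174 always the farther one, and 65 served both ways. The busiest bin was 57355001 to 57360000 on chromosome 7, with 7 loops, all of this class. It reached 3 bins on its lower side, at distances of 65, 80 and 135 kb, and 4 on its higher side, at 70, 90, 105 and 130 kb. The bin 76375001 to 76380000 on chromosome 1 carried 5, all towards higher positions, at 60, 85, 105, 115 and 185 kb, and also a loop of 390 kb. The bin 48435001 to 48440000 on chromosome 2 carried 5 as well, with a partner 75 kb below it and partners 55, 80, 95 and 105 kb above it. The first of these bins lies in the Mb next to the fullest window, and the bin of chromosome 2 lies within the second fullest.

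Anchor bins of the class were also used by shorter loops more often than bins nearby. Each such bin held 0.279 anchors of 10 to 40 kb loops, against 0.189 in bins 15 to 50 kb outside the loop. The anchor bins were chosen for holding an anchor of a listed loop, and the outside bins were not. The part of this choice in the contrast was not tested. As a geometric mean over chromosomes, the ratio was 1.47 (95% interval 1.38 to 1.57). It was above 1 on 12 of 12 chromosomes (exact two-sided sign-flip permutation p = 0.000488, adjusted 0.000684). For loops of 15 to 40 kb around members of 45 to 100 kb the pooled ratio was 2.01, and for 10 kb loops it was 1.22. The same values around members of 105 to 200 kb were 1.49 and 1.17. Loops over 200 kb had 0.0654 anchors of shorter loops per anchor bin and 0.0348 per outside bin, a pooled ratio of 1.88; the difference between the classes was not tested.

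**Figure D4:**
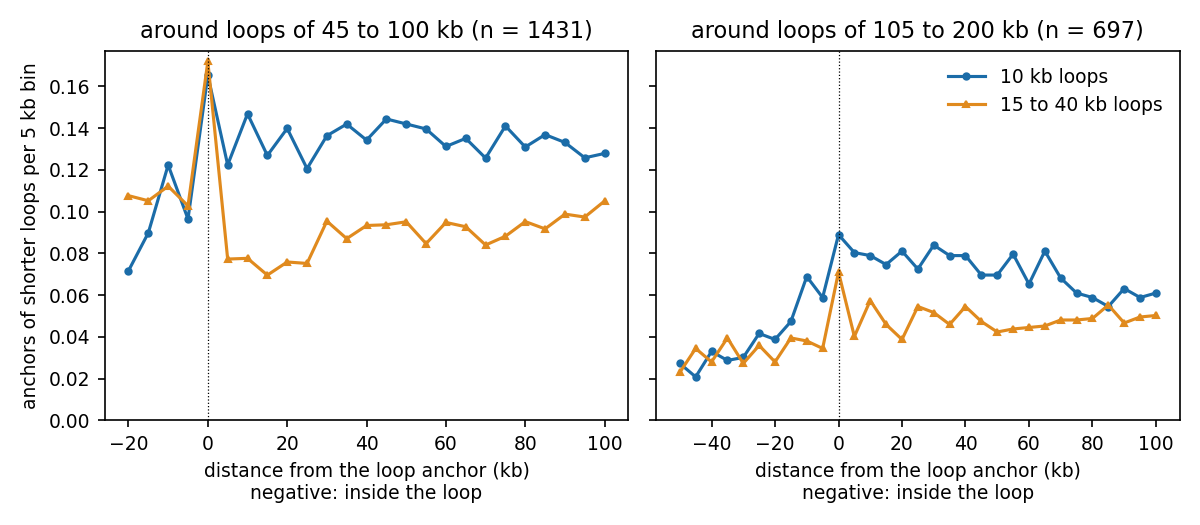
Anchors of 10 kb and of 15 to 40 kb loops per 5 kb bin (vertical axis) against distance from an anchor of a 45 to 200 kb loop (horizontal axis, kb; negative values are inside the loop), for members of 45 to 100 kb and of 105 to 200 kb. Both kinds peak at distance 0, and 10 kb loops are sparser inside than outside.

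Loops of 45 to 200 kb enclosed few shorter loops. The mean was 1.03 loops of 10 to 40 kb, counting those that shared an anchor bin, and 1103 of the 2128 (51.8%; 95% interval 49.7 to 54.0%) enclosed none. A further 455 enclosed 1, 256 enclosed 2 and 314 (14.8%) enclosed at least 3. Without loops that touched the anchor bins the mean was 0.723. Of the shorter loops, 1314 (20.2%) lay within at least 1 loop of the class. Loops of 10 kb, 3916 in the list, lay inside 708 members (33.3%). The fewer loops of 15 to 40 kb, 2581 in the list, lay inside 748 members (35.2%). For comparison, 83.4% of the loops over 200 kb enclosed no loop of 10 to 40 kb, and their mean was 0.551.

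Longer members enclosed fewer, although more could fit. The mean was 1.22 at 45 to 60 kb, 1.08 at 65 to 80 kb, 1.04 at 85 to 100 kb, 0.903 at 105 to 150 kb and 0.702 at 155 to 200 kb. The share enclosing none was 36.1% (95% interval 32.6 to 39.7%) in the first of these bands and 72.5% (67.1 to 77.6%) in the last. At the ends alone the mean was 1.31 at 45 to 60 kb and 1.02 at 155 to 200 kb, and in the interior it was 0.758 and 0.200. Longer members lay more often in the interior, as given above, and the part of position in this order was not tested. Windows of the same length directly beside each member held more shorter loops as span increased to 150 kb: 1.10 at 45 to 60 kb, 1.62 at 105 to 150 kb and 1.41 at 155 to 200 kb.

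The members with the most enclosed loops held 10 each. One joined 78565001 to 78570000 and 78715001 to 78720000 on chromosome 1 (150 kb), one joined 270001 to 275000 and 455001 to 460000 on chromosome 5 (185 kb), and one joined 68400001 to 68405000 and 68550001 to 68555000 on chromosome 9 (150 kb). They enclosed 5, 6 and 4 other members as well. A member from 78580001 to 78585000 to 78725001 to 78730000 on chromosome 1 held 9, and the first of the 5 members with 8, by chromosome and position, shared its start and ended at 78715001 to 78720000. Of these 5 members, 3 thus belong to 1 dense stretch of chromosome 1, and the others were centred at 0.533% of the extent of chromosome 5 and 99.7% of that of chromosome 9.

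Shorter loops were sparser inside members than in flanks of the same length on each side. Counted by midpoint, there were 12.9 loops of 10 to 40 kb per Mb inside and 15.9 per Mb in the flanks. The geometric mean of the ratio over chromosomes was 0.763 (95% interval 0.661 to 0.881). The ratio was below 1 on 11 of 12 chromosomes, with chromosome 6 as the exception (exact sign-flip permutation p = 0.00146, adjusted 0.00146). The flank towards the chromosome tip had 16.4 per Mb and the flank towards the centre 15.5 per Mb, so both exceeded the inside. Overlapping members count a shorter loop repeatedly. With each shorter loop counted once, the log2 ratio was −0.27 in place of −0.39. Leaving out shorter loops that touched the anchor bins gave −0.709, positive on 0 of 12 chromosomes (exact two-sided sign-flip permutation p = 0.000488).

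The 10 kb loops carried this result, and the loops of 15 to 40 kb alone did not pass the test. The 10 kb loops had a density of 5.96 per Mb inside and 9.60 per Mb in the flanks, with a mean log2 ratio of −0.76 ± 0.23 (SD, n = 12 chromosomes) that was negative on 12 of 12. The 15 to 40 kb loops had 6.95 per Mb inside and 6.33 per Mb in the flanks, with a mean log2 ratio of 0.02 ± 0.54 (SD, n = 12 chromosomes; exact sign-flip permutation p = 0.898) that was negative on 6 of 12. The 10 kb value was the lower on 11 of 12 chromosomes, all but chromosome 10; this difference was noticed in the data and not tested. Chromosome 10 had the lowest value for 15 to 40 kb loops, at −1.25, and chromosome 6 the highest, at 0.98.

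Span separated the members further. For 10 kb loops the pooled ratio of inside to flank density was below 1 in each band of span, from 0.739 at 45 to 60 kb to 0.518 at 105 to 150 kb and 0.544 at 155 to 200 kb. For loops of 15 to 40 kb it went from 1.62 at 45 to 60 kb through 1.34 at 65 to 80 kb and 1.01 at 85 to 100 kb to 0.654 at 105 to 150 kb and 0.548 at 155 to 200 kb. The shortest members therefore held more loops of 15 to 40 kb than their flanks when loops touching an anchor bin were counted. Members over 100 kb held fewer loops of both kinds. For all loops of 10 to 40 kb, members of 45 to 60 kb enclosed a mean of 1.22, against 1.10 in windows of the same length beside them. Without loops that touched the limits of the member or window these means were 0.736 and 0.798. Loops of 15 to 40 kb alone were not counted this way. In loops over 200 kb the density of 10 to 40 kb loops was 1.36 per Mb inside and 3.04 per Mb in the flanks. These pooled ratios carry no test. Absence of adjacent calls was counted for pairs of 45 to 200 kb loops alone, and its part in these ratios was not tested.

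**Figure D5:**
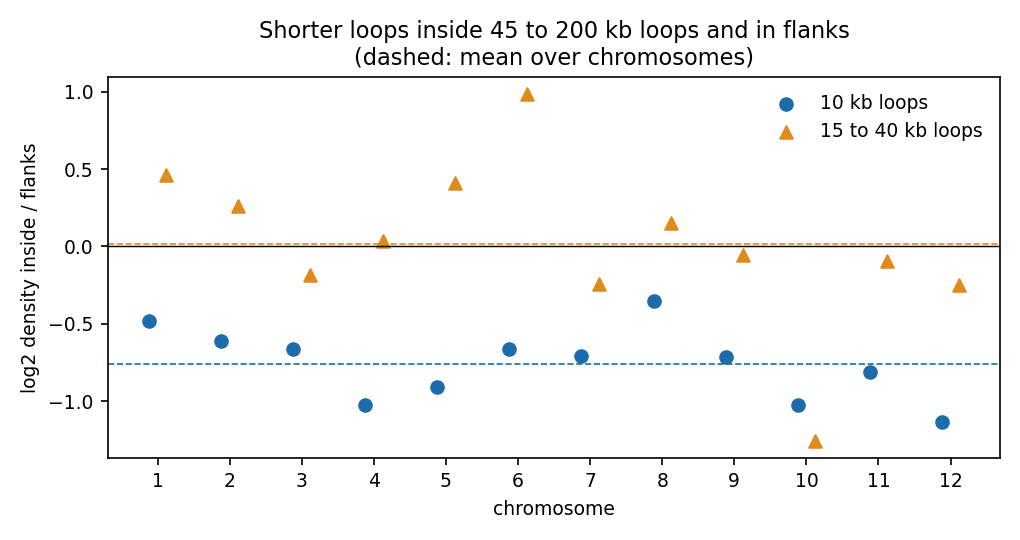
Log2 ratio of the density of shorter loops inside 45 to 200 kb loops to that in flanks of equal length (vertical axis) on each chromosome (horizontal axis), with dashed lines at the means. All 12 values for 10 kb loops lie below 0, while those for 15 to 40 kb loops run from −1.25 on chromosome 10 to 0.98 on chromosome 6.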

How the data were processed

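Per the submitters' processing notes, the Hi-C tool was HiC-Pro 3.1.0, and the deposited list's name gives FitHiC and a bin size of 5 kb; its settings, assembly and distance limits were not given in the sources used here. Positions are all that the authors deposited: the midpoints of both anchor bins, without contact counts, from both samples together. Replicates could not be compared, and the leaf ATAC-seq peaks were not used, since the loop list names no assembly to match them by.

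Spans are differences of midpoints. A loop belongs to the part of the chromosome that holds its midpoint. Flanks were as long as the loop and clipped at the chromosome limits, and a midpoint on a limit counted for both sides in equal parts. Differences and log2 ratios per chromosome were tested by flipping their signs in all 4096 ways and comparing the mean (exact permutation, two-sided), with Benjamini-Hochberg adjustment over 7 tests. Intervals of means over chromosomes are 95% intervals from their SD. Calculations used Python 3.11.15, NumPy 2.4.6, pandas 2.3.3 and SciPy 1.17.1. The ratios of inside to flank density and of end to interior density were tested on simulated loops with known ratios. The simulated members had a single span and did not overlap. The simulated shorter loops had no gradient along the chromosome and were far more numerous than in the data. Overlapping members, uneven shorter loops and low counts were therefore not covered, and the other measures were not simulated. Positions are named by rank: the 3 fullest windows, 3 busiest bins, 5 members enclosing most loops and 3 longest stretches, with ties ordered by chromosome and position. The class, the tests and these rules were chosen with earlier results of these data known.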

Additional observations from a re-analysis of the deposited data

How the results depend on the processing

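Of 121 alternative values computed, 117 kept their direction and their side of the 0.05 threshold, or stayed close where no test was made. Most of the 121 left out a single chromosome. For results with the same sign on every chromosome, that omission could change neither the direction nor the side of the threshold. The 117 therefore include many values that could not have changed, and the values that did change came from other alternatives. With shorter loops of 15 to 40 kb, the density inside members against flanks turned to a log2 ratio of 0.0185 (−0.390 as reported), and the difference in anchor sharing fell to 0.731 percentage points. Both moved because the 10 kb loops were left out; with 10 kb loops alone they were −0.758 and 16.0. A class of 60 to 150 kb held 1242 loops by construction, and enclosed loops strictly between the anchor bins averaged 0.723, since loops touching an anchor were left out. Across the alternatives the difference in end share ran from −29.9 to −11.3 percentage points against shorter loops and from 24.8 to 33.6 against longer ones. The log2 ratio of end to interior density ran from 1.43 to 2.65. The log2 ratio of shorter-loop anchors in anchor bins of the class to those in bins outside ran from 0.257 to 0.913. Leaving out each chromosome other than chromosome 2 in turn, counting each shorter loop or anchor bin once and taking 10 kb loops alone were alternatives chosen after seeing the data. No paired analysis was possible because the list gives no values for single plants, which also prevented leaving either plant out. Depth is unknown, so an absent loop sets no limit of detection.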

Other observations

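Loops of 45 to 200 kb often overlapped one another. Pairs in which a loop lay within another numbered 1494, of which 512 shared an anchor bin, and 1007 pairs crossed. In all, 1248 members (58.6%) took part in a nested pair and 821 (38.6%) in a crossing pair, while 90 pairs lay end to end. A further 627 (29.5%) had none of these relations to another member. Together the members covered 111 Mb, 13.8% of the summed extents, and 373 (17.5%) lay inside a loop over 200 kb.

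Counts of 45 to 200 kb loops varied widely among windows with similar counts of 10 to 40 kb loops. Windows of 1 Mb with no shorter loop held a mean of 0.426 ± 0.966 members (SD, n = 420 windows), and those with 1 to 5 held 3.03 ± 3.35 (n = 156 windows). Windows with 6 to 15 shorter loops held 7.44 ± 4.31 (n = 48 windows), those with 16 to 30 held 6.98 ± 4.36 (n = 82 windows), and those with 31 to 57 held 5.71 ± 4.86 (n = 90 windows). These SDs describe the spread of single windows and not the error of a mean. Windows with 31 to 57 shorter loops held up to 24 members. Neighbouring windows are not independent, and these means were not tested against each other. Over the 796 windows, which share the list and its unknown depth, the counts of the class and of shorter loops correlated with Spearman rho = 0.75 and Pearson r = 0.49, and those of the class and of loops over 200 kb with 0.05 for both.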
